A study of Mus musculus with 3 samples.

Results

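The guanylate-binding protein (GBP) genes Gbp2, Gbp2b, Gbp3, Gbp4, Gbp5, Gbp6, Gbp7, Gbp8, Gbp9 and Gbp10 were followed in RNA of the chromatin fraction of mouse macrophages. They were chosen by gene symbol, and all 10 were found among 55536 annotated genes, with 36 of 141767 annotated transcripts. The rule uses no measured value. The RNA came from bone marrow-derived macrophages (BMDM), primary cells of strain C57BL/6J, for which the labels give no genetic change, and neither sex nor age was collected. All 3 libraries belong to 1 group and are biological replicates of it. Every culture received 100 ng/ml Lipid A, the membrane anchor of bacterial lipopolysaccharide that is sensed by TLR4, for 12 hours, was then kept without it for 12 hours, and was given 100 ng/ml again for 30 minutes. No untreated culture and no other time is part of the series, so levels could be compared with a fixed floor and with other genes, not between conditions. All 3 biosamples carry the same donor identifier, so p-values measure the spread between these samples. The libraries were started from different amounts of RNA, with 1 µg in replicate 1, 250 ng in replicate 2 and 500 ng in replicate 3. Input amount and replicate therefore cannot be told apart.

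GBPs are large GTPases of the dynamin superfamily and are among the most strongly interferon-induced proteins of macrophages. They bind GTP, self-assemble, and coat the vacuoles of intracellular pathogens and the surface of cytosolic Gram-negative bacteria, where they expose lipopolysaccharide to caspase-11 and promote inflammasome activation. Some members, Gbp2, Gbp2b and Gbp5 among them, end in a CaaX motif that is prenylated and anchors the protein to membranes. Their transcription is driven through promoter elements named interferon-stimulated response elements (ISRE) and gamma-activated sites (GAS). RNA of the chromatin fraction is enriched in transcripts that are still being made or have not yet been released.

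The mouse genes form clusters on 2 chromosomes. Gbp5, Gbp7, Gbp3, Gbp2b and Gbp2 lie in this order within 144.0 kb on the plus strand of chromosome 3 (mm10, chr3:142493978-142638008). Gbp8, Gbp9, Gbp4, Gbp10 and Gbp6 lie within 279.5 kb on the minus strand of chromosome 5 (chr5:105014150-105293698). RefSeq promoter windows on build GRCm38.p6, from 250 bases before to 50 bases after a start, were matched for Gbp2, Gbp2b, Gbp3, Gbp5 and Gbp7, which are 5 of the 10 members. They were searched on both strands for an ISRE core (GAAA, then 2 bases of any kind, then GAAA), for GAS (TTCNNNGAA) and for an NF-kB motif (GGGA, then 4 bases of any kind, then CC). The ISRE core was found in at least 1 window of all 5 genes, against 3.44% of the 32851 windows in the table. The 30 bases around it are shown on the plus strand, with the match in capitals. It reads as its reverse complement in every case, and in Gbp3 a pair of overlapping matches shares bases.
Gbp5, chr3:142496759-142496788: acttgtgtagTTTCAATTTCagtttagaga
Gbp7, chr3:142530273-142530302: gtgtgtgcagTTTCAGTTTCagttctccat
Gbp3, chr3:142559992-142560021: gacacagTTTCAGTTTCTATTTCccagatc
Gbp2b, chr3:142594700-142594729: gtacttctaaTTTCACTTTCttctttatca
Gbp2, chr3:142620594-142620623: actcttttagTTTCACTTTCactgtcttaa

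The first base of the match lay 165 bases before the RefSeq start in Gbp5, 53 in Gbp7, 45 and 39 in Gbp3, 137 in Gbp2b and 59 in Gbp2. In Gbp2 the match nevertheless lies just after the start of the annotated transcript Gbp2-201, at chr3:142620602. The other of the 2 Gbp3 windows held no match to any of the motifs. GAS, whose letters are their own reverse complement, was found in Gbp5 (245 and 52 bases before the start) and Gbp7 (106 and 87 bases before it), against 8.3% of all windows. Gbp5 and Gbp7 thus held both motifs, which 0.454% of all windows did. The NF-kB motif was in the windows of Gbp5, 77 bases before the start, and Gbp2, 7 bases after it, against 20.7% of all windows. These matches are letters in a window and do not show binding. The promoter of Gbp5, the member with the highest RNA level, and that of Gbp2b, the member with the lowest, are printed up to the base before the first annotated transcript start inside the window, with all matches to the 3 motifs in capitals.
Gbp5, chr3:142496684-142496899: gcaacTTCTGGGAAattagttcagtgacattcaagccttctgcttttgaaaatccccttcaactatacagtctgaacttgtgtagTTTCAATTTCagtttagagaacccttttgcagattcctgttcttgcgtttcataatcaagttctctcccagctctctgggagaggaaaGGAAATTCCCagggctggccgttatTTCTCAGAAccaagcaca
Gbp2b, chr3:142594597-142594846: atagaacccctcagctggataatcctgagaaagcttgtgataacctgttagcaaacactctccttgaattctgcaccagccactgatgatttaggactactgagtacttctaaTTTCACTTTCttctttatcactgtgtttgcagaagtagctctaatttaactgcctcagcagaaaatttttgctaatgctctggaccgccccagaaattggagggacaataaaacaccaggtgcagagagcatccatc

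Within that stretch Gbp5 had 4 separate matches and Gbp2b had 1, the ISRE core. Before its RefSeq start Gbp2 also held only the ISRE core, and its RNA level was far above that of Gbp2b. Gbp7 held the ISRE core and 2 GAS matches, yet its level was below those of Gbp2 and Gbp3, which held no GAS. A link between matches and RNA level was not tested.

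Coding sequences were compared because reads of close relatives can be credited to the wrong member. On chromosome 5, pairs of members were identical at 78.03% to 98.36% of aligned coding columns (median 88.03% over 10 pairs). On chromosome 3 the range was 60.15% to 82.51% (median 61.02% over 10 pairs), and between the clusters 53.09% to 72.67% (25 pairs). Columns with a gap inside the alignment count as not identical, which lowers the pairs of Gbp8, the shortest coding sequence at 1575 bases. Gbp8 and Gbp9, the lowest pair of chromosome 5, had 1421 identical bases over 1821 columns, of which 1574 had no gap. These percentages therefore understate how alike the bases are where such pairs align. Gbp6 and Gbp10 were the closest pair, with 30 differing bases over 1833. Gbp2 and Gbp2b were the closest pair of chromosome 3, with 309 differing bases over 1767. For each pair, the 60 coding bases with the most differences are shown, counting in steps of 60 from the first coding base. Capitals mark the bases that differ, 7 between Gbp6 and Gbp10 (coding bases 1561 to 1620) and 20 between Gbp2 and Gbp2b (coding bases 1681 to 1740). Gbp6 and Gbp10 are given on the minus strand, from which they are transcribed.
Gbp6, chr5:105274217-105274276: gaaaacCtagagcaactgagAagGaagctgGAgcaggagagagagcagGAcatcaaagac
Gbp10, chr5:105218417-105218476: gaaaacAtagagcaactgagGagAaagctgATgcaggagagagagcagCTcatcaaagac
Gbp2, chr3:142637404-142637463: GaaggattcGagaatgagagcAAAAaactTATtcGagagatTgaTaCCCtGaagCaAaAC
Gbp2b, chr3:142618116-142618175: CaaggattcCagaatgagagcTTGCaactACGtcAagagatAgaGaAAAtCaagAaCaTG

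**Figure D1:**
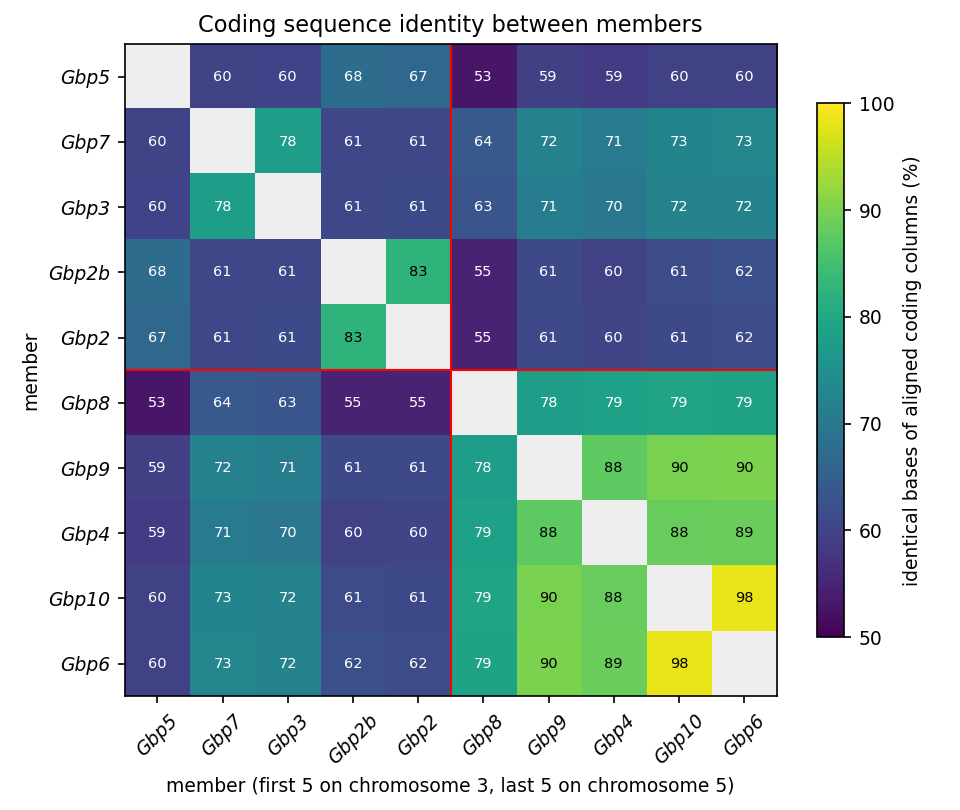
Identical bases (%) of aligned coding columns for each pair of the 10 members, with the chromosome 3 members first and red lines between the clusters. Columns with a gap inside the alignment count as not identical. The brightest cell is Gbp6 with Gbp10 at 98.36%, and the darkest is Gbp5 with Gbp8 at 53.09%.

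Over whole transcripts, 73.5% of the 100-base stretches of Gbp10 and 64.5% of those of Gbp6 also occurred in a transcript of another gene. For Gbp10 the gene sharing the most was Gm43302, an annotated coding gene that runs across both loci and shares 46.3% of the exonic bases of Gbp10 and 29% of those of Gbp6. The share was 10% for Gbp7, 4.39% for Gbp8, at most 1.65% for Gbp3, Gbp4, Gbp5 and Gbp9, and 0 for Gbp2 and Gbp2b. The values of Gbp10 and Gbp6 are uncertain for this reason. Gbp4, Gbp8 and Gbp9 also share about 60 exonic bases on the same strand at chr5:105139480-105139540.

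Levels are given as TPM, an abundance per unit of effective transcript length that sums to the same total in each library. Of the 10 members, 8 were above a floor of 1 TPM (limma on log2(TPM + 0.1), one-sided, Benjamini-Hochberg adjusted p under 0.05). Among all 24180 genes tested, 51.1% were called in this way, and among the 15120 protein-coding genes tested, 61.8% were. The median of the 10 members was 94.3 TPM, against 2.02 TPM over all genes tested and 4.17 TPM over protein-coding genes tested. Together the members held 1537, 751 and 1096 TPM in replicates 1, 2 and 3 (1128 ± 394, SD, n = 3). In bulk RNA, more expressing cells and more RNA per cell cannot be told apart. The chromosome 3 members made up 56.0%, 43.7% and 53.1% of this sum.

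Gbp5, a member linked to NLRP3 and AIM2 inflammasome activation, was the highest in each library. It had 589, 172 and 390.1 TPM in replicates 1, 2 and 3, a mean of 384 ± 208 TPM (SD, n = 3) and 32.3% ± 8.22 of the family sum. Replicate 1 was 3.42 times replicate 2. The level lay 8.27 log2 units above the floor (SE 0.40, limma adjusted p = 8.6e-05), and the mean exceeded that of 99.5% of protein-coding genes tested.

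The other members of chromosome 3 were spread over a wide range. Gbp2, which is recruited to parasite and bacterial vacuoles, had 109.9, 58.6 and 80.1 TPM (82.9 ± 25.8). Gbp3 had 90.1, 50.1 and 64.3 TPM (68.2 ± 20.3). Gbp7, linked to the assembly of the phagocyte NADPH oxidase, had 70.6, 47.6 and 46.9 TPM (55.0 ± 13.5). All of these were above the floor, by 5.62 to 6.19 log2 units (limma adjusted p from 4.5e-05 to 5.2e-05). Gbp2b, known earlier as mouse Gbp1, had 0.78, 0.37 and 0.36 TPM (0.503 ± 0.240), from expected counts of 22, 15 and 14. It was below the floor in all 3 libraries (-0.94 log2 units, SE 0.26, limma adjusted p = 1.0). The ranges of Gbp2b and of its closest relative in coding sequence, Gbp2, thus did not overlap.

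On chromosome 5, the upper 4 members had means between 106 and 181 TPM. Gbp6 had 232, 128 and 182 TPM (181 ± 52.1). Gbp8 had 171, 101 and 139.5 TPM (137 ± 35.0), and Gbp4 had 142, 83.6 and 91.9 TPM (106 ± 31.4). Gbp9 varied least of all members, with 124, 109 and 99.8 TPM (111 ± 12.4). All 4 were above the floor by 6.55 to 7.32 log2 units (limma adjusted p from 3.9e-05 to 4.3e-05).

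Gbp10, whose coding sequence is nearly that of Gbp6, had 8.24, 1.66 and 0.92 TPM (3.61 ± 4.03). Replicate 1 was well above the others and replicate 3 was under the floor. The level was 1.16 log2 units above the floor with an SE of 0.66 and did not pass (limma adjusted p = 0.145). Its expected counts were 104, 79.4 and 45.1, and the posterior SD of the count in the deposited tables was 14.3%, 10.7% and 13.5% of the posterior mean, against at most 0.50% for the other members. The effective length behind its TPM was 1174 bases in replicate 1, 2989 in replicate 2 and 3282 in replicate 3. In CPM, which uses no length, Gbp10 had 8.42, 4.34 and 2.48, a narrower range than in TPM. In the second transcript table summed per gene, Gbp10 had 7.69, 2.42 and 2.75 TPM and passed at 1.80 log2 units (limma adjusted p = 0.0096), where 57.5% of genes tested were called. It also passed with TPM rescaled over protein-coding genes, at 2.77 log2 units (limma adjusted p = 0.0081), where 72.4% were called. With a floor of 5 TPM, which 29.2% of genes tested passed, the same 8 members were called.

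**Figure D2:**
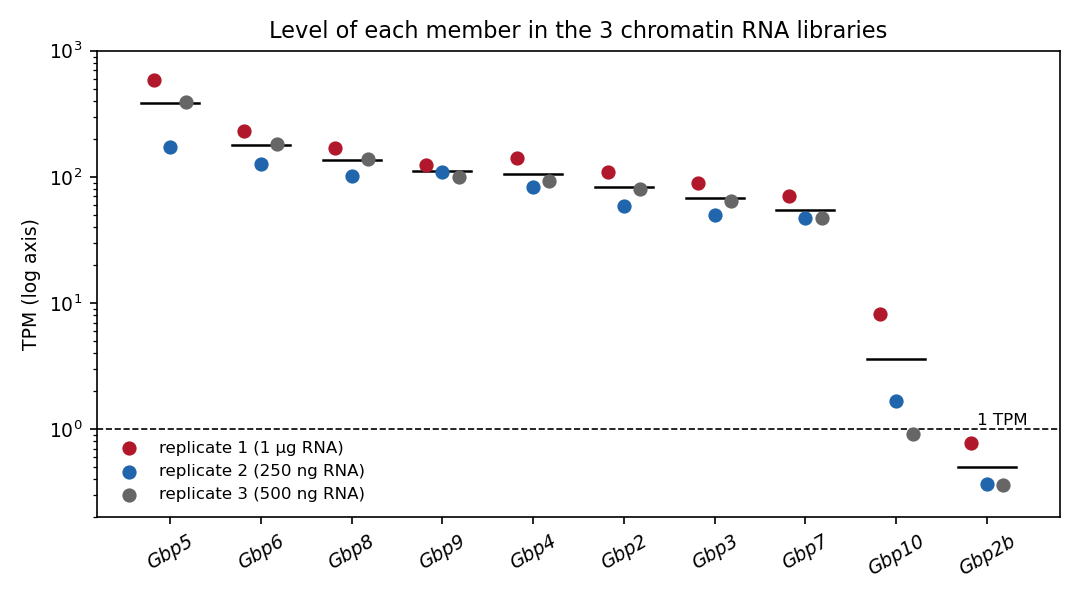
TPM (log axis) of each member in each of the 3 libraries, with a black line at the mean and a dashed line at 1 TPM. The 8 members from Gbp5 to Gbp7 lie between 46.9 and 589 TPM in every library, Gbp10 spans the dashed line and Gbp2b is below it.

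By mean level the order was Gbp5, Gbp6, Gbp8, Gbp9, Gbp4, Gbp2, Gbp3, Gbp7, Gbp10 and Gbp2b. Gbp5 was first and Gbp6 the next in each library, and Gbp2, Gbp3, Gbp7, Gbp10 and Gbp2b kept ranks 6 to 10 in all of them. Gbp8, Gbp9 and Gbp4 exchanged ranks 3 to 5 between libraries. The order is of gene TPM, which adds transcripts of all annotated classes, and it changes if only protein-coding transcripts are read. Gbp2-201 had 109.9, 58.1 and 78.6 TPM in replicates 1, 2 and 3, and Gbp6-201 only 18.6, 22.8 and 17.0. Gbp5-201 had 157, 39.9 and 106.9 TPM, above Gbp2-201 in replicates 1 and 3 but below it in replicate 2. The ranges of neighbours in the order overlapped for all 7 pairs from Gbp5 to Gbp7. Both genes of a pair are measured in the same library, and within libraries some of these pairs kept 1 direction. Gbp5 exceeded Gbp6 in 3 of 3 libraries (mean log2 ratio 0.96 ± 0.47, SD), Gbp6 exceeded Gbp8 in 3 of 3 (0.39 ± 0.05) and Gbp2 exceeded Gbp3 in 3 of 3 (0.28 ± 0.05). Gbp4 exceeded Gbp2 (0.36 ± 0.16) and Gbp3 exceeded Gbp7 (0.29 ± 0.20), also in 3 of 3. These 5 directions were the same in 3 of 3 libraries of the second transcript table. Gbp8 exceeded Gbp9 in 2 of 3 libraries (0.28 ± 0.34). Gbp9 exceeded Gbp4 in 2 of 3 libraries here and in 0 of 3 in the second transcript table. Ranges did not overlap between Gbp7 and Gbp10, a 15.3-fold step in the means, or between Gbp10 and Gbp2b, a 7.17-fold step. Both rest on Gbp10 in replicate 1, and without that library they were 36.6-fold and 3.53-fold. No test of neighbours was made, because the smallest two-sided p of an exact sign-flip test over 3 libraries is 0.25.

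Replicate 1 had the highest value of every member. All 10 were highest there in TPM, against 27.9% of the 10226 protein-coding genes with a mean above 1 TPM, and all 10 were highest there in the second transcript table, against 37.8%. On counts scaled by edgeR's TMM factors the members lay above the mean of the other 2 libraries by a median of 0.69 log2 units in replicate 1 (range 0.33 to 1.34), where the median of 10850 protein-coding genes was -0.05. In replicate 2 all 10 lay below the mean of the other 2 libraries, with a median of -0.61, where the median of protein-coding genes was 0.04 and 54.1% of them were above 0. Replicate 2 was the lowest library for 8 of the 10 on this scale, against 3617 of the 10850 protein-coding genes. In TPM it was the lowest for 6 of 10, against 2879 of the 10226 protein-coding genes. Gbp7, Gbp9, Gbp10 and Gbp2b were lowest in replicate 3 in TPM. In replicate 3 the members' median was -0.12, with 3 above and 7 below 0, and 54.8% of protein-coding genes were above 0. Gbp5 had the lowest value in replicate 2, at -1.51, and Gbp9 the value nearest to 0, at -0.09. Replicate 1 had the largest RNA input and also the lowest total expected count over genes, 12401783 against 18317179 and 18164629, and the part of either in this pattern was not tested.

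The biological coefficient of variation (BCV) over the 3 libraries, from edgeR, had a median of 0.242 over the members and 0.201 over protein-coding genes kept. The direction of this difference did not hold throughout: without replicate 2 the medians were 0.168 and 0.171, and without the filter on low counts 0.237 and 0.243. Gbp10 (0.374) and Gbp5 (0.371) were at the 98th percentile of protein-coding genes and Gbp9 (0.190) at the 41st. The other 7 members were between 0.225 and 0.295.

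**Figure D3:**
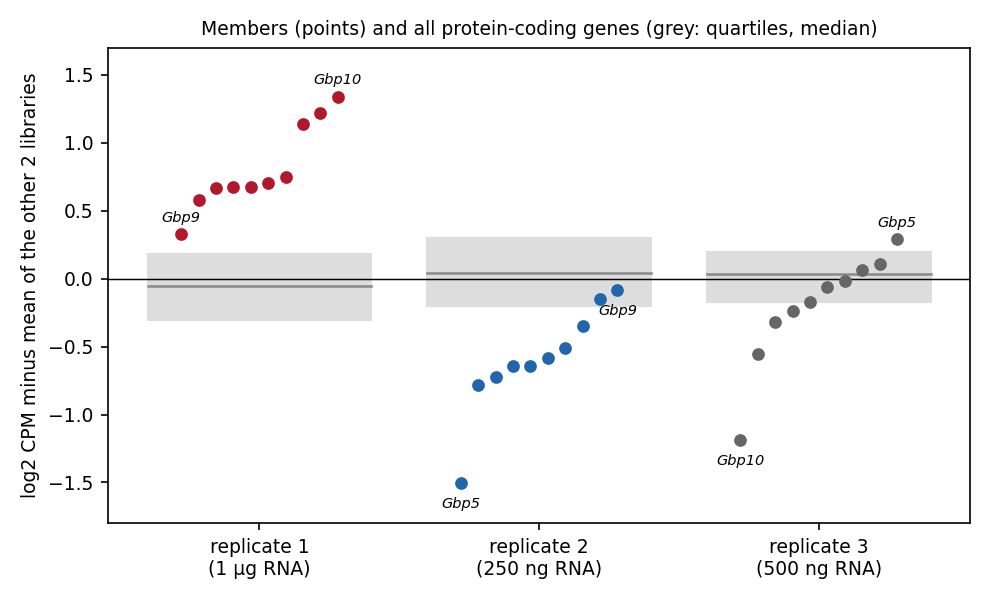
Log2 CPM of each library minus the mean of the other 2, after TMM scaling. Points are the 10 members in rising order, and grey boxes and lines are the quartiles and median of all protein-coding genes kept; all points are above 0 in replicate 1 and below 0 in replicate 2.

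The annotated transcripts of a gene are classed in GENCODE M21 as protein-coding, retained intron (an intron kept in the RNA, with no coding product), nonsense-mediated decay or processed transcript. Of the expected counts of all members, 32.3% ± 1.86 were assigned to protein-coding transcripts, 43.0% ± 1.58 to retained-intron transcripts and 21.1% ± 1.25 to nonsense-mediated decay transcripts (SD, n = 3). These shares are pooled over the members. Per gene, over protein-coding genes with a mean above 1 TPM that have such a transcript, the median was 80.1% for protein-coding transcripts. For nonsense-mediated decay transcripts it was 2.42%. Members fell into different patterns. Gbp2 (99.8%), Gbp3 (99.1%), Gbp7 (100.0%) and Gbp2b (100.0%) had nearly all counts on protein-coding transcripts, and none of these 4 has an annotated retained-intron transcript. All 4 are on chromosome 3. Where no such transcript is annotated, the tables cannot show reads from a kept intron.

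Gbp9 had the largest retained-intron share, 88.2%, 77.5% and 71.7% in replicates 1, 2 and 3 (79.1% ± 8.35), all on transcript Gbp9-203, which differs from the protein-coding exons mainly by 662 bases at chr5:105082911-105083572. That share was above 92.9% of the protein-coding genes over 1 TPM that have a retained-intron transcript. Over those 6445 genes the median was 28.5%. The shares of Gbp5 and Gbp6 were above 78.3% and 72.8% of these genes. Those of Gbp4, Gbp8 and Gbp10 were above only 43.2%, 36.1% and 25.2%. Gbp5 had 56.9% ± 2.08 of its counts on Gbp5-205, a transcript of 2 exons with 2460 bases outside the protein-coding exons, and 22.7% ± 2.13 on its protein-coding transcript. By TPM, Gbp5-205 alone had 317, 100.1 and 214, and the protein-coding Gbp5-201 had 157, 39.9 and 107. Both transcripts were higher in replicate 1 than in replicate 2.

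Gbp6 had 50.5% ± 2.23 on a retained-intron transcript, 42.1% ± 2.59 on a nonsense-mediated decay transcript and 7.37% ± 3.52 on the protein-coding one. Gbp4 had 70.5% ± 2.35 on Gbp4-202, a nonsense-mediated decay transcript, 22.8% ± 1.97 on a retained-intron transcript and 6.71% ± 0.894 on protein-coding ones. Every exonic base of Gbp4-202 is also in a protein-coding transcript of the gene, so assignment between them rests on exon junctions and on the statistical model. Gbp8 was divided between protein-coding (35.6% ± 0.982), retained-intron (17.6% ± 3.89) and processed transcripts (46.8% ± 3.15). Gbp10 had 31.4%, 1.41% and 0% on a retained-intron transcript of 703 bases, the shorter of its 2 transcripts, in replicates 1, 2 and 3. The library with the short effective length was thus the one with the largest share on the short transcript. The second transcript table gave 34.6% protein-coding and 39.6% retained-intron counts for the family and 67.8% retained-intron counts for Gbp9. Its retained-intron share was 38.0% for Gbp4, 30.1% for Gbp8, and 3.45%, 0% and 0% for Gbp10 in replicates 1, 2 and 3, so the shares of these 3 genes depend on the quantification. It placed 12.5% of Gbp5 counts on Gbp5-204, which had 0 in the first tables.

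**Figure D4:**
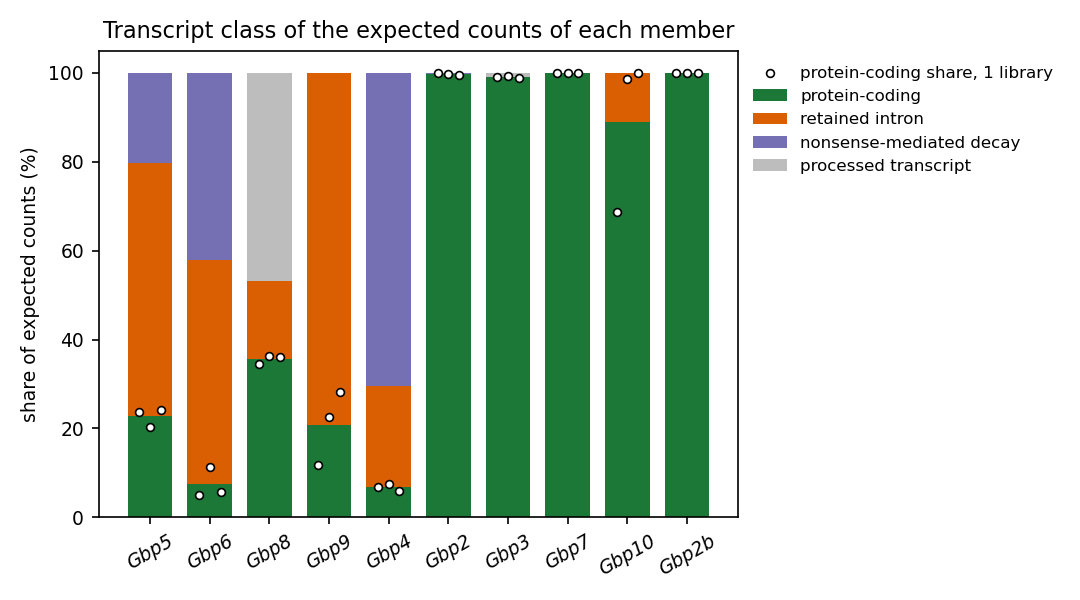
Share of the expected counts (%) of each member on each transcript class, as the mean of 3 libraries; open circles are the protein-coding share in each library. Gbp2, Gbp3, Gbp7 and Gbp2b are nearly all protein-coding, whereas Gbp6 and Gbp4 are at 7.37% and 6.71%.

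The ratio of the second transcript table to the gene table was between 0.823 and 1.58 for the mean TPM of the members, with a median of 1.04, against a median of 1.28 over 10216 protein-coding genes above 1 TPM (quartiles 1.01 and 1.73). Gbp3 (1.58), Gbp4 (1.40) and Gbp2 (1.39) were higher in the second table. Gbp8 (0.823) and Gbp6 (0.883) were lower, and Gbp5 lay between 1.03 and 1.10 in every library. Gbp10 had the widest range over libraries, 0.934, 1.46 and 2.99. The sum of Gbp6 and Gbp10 was 184 ± 55.4 TPM in the gene table and 164 ± 59.8 TPM in the second. It does not fully remove the division of reads between them, because their effective lengths differ. Reads credited to Gm43302, which shares exons with both, are left out of it. The sum of Gbp4, Gbp8 and Gbp9 was 354 ± 74.3 and 369 ± 103 TPM.

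**Figure D5:**
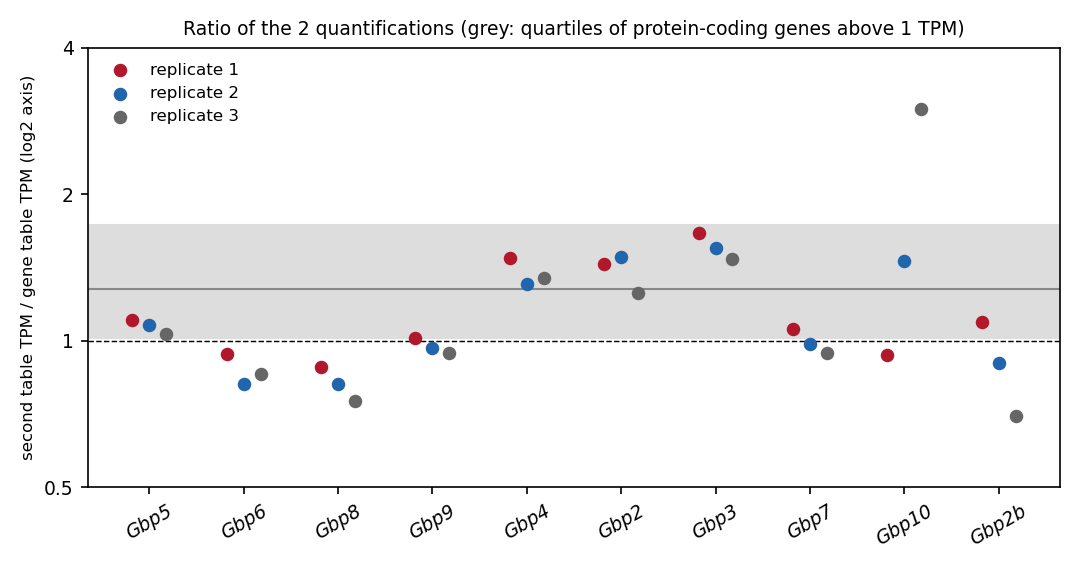
TPM of the second transcript table divided by TPM of the gene table (log2 axis) for each member and library, with the quartiles and median of protein-coding genes above 1 TPM in grey. Gbp10 in replicate 3, at 2.99, stands apart from all other points, which lie between 0.700 and 1.67.

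Further annotated genes with the Gbp name or inside the clusters were few. Gbp11, annotated with a polymorphic pseudogene transcript beside the chromosome 5 cluster, had 34.7, 13.6 and 22.9 TPM and was above the floor (4.34 log2 units, SE 0.31, limma adjusted p = 0.00027). Its order over libraries was that of Gbp5. Gm43302, which shares exons with Gbp6 and Gbp10, had 1.64, 0 and 1.78 TPM in the gene table and at most 0.154 TPM in the second. The posterior SD of its count was 52.1%, 72% and 36.7% of the mean. The pseudogene Gbp2-ps had 0 counts in all libraries of the gene table, and a floor of 3 counts would be 0.242, 0.164 and 0.165 CPM in the 3 libraries, for counting error only.

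The genes that act upstream of the GBPs were read in the same libraries. All 16 of the listed interferon receptor and signalling genes were above 1 TPM, with a median of 63.3 TPM. Of the protein-coding genes tested, 61.8% passed this floor and the median was 4.17 TPM, which applies to each list below as well. Irf1, a factor that binds ISRE-type sites of Gbp promoters, had 1096, 418 and 901 TPM (805 ± 349), and Stat2 had 570 ± 96.7 TPM. Like Gbp5, Irf1 was highest in replicate 1 and lowest in replicate 2. Of the 16 genes, 13 were highest in replicate 1, against 27.9% of protein-coding genes with a mean above 1 TPM. Of 10 interferon and interferon-inducing cytokine genes only Il18 passed, at 25.1 ± 4.46 TPM. Ifnb1, the gene of interferon-beta, had 1.73, 0.78 and 0.93 TPM and did not pass (limma adjusted p = 0.63). Il12b (0.797 ± 0.860 TPM) and Il12a (0.150 ± 0.053 TPM) did not pass, and Ifng, Ifna1, Ifna2, Ifna4, Ifnl2 and Ifnl3 had 0 counts in all 3 libraries.

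Other interferon-linked GTPases were also high. Among 10 immunity-related GTPases, smaller proteins that act with the GBPs at pathogen vacuoles, 9 were above 1 TPM and the median was 40.1 TPM. Iigp1 had 339 ± 150 TPM, Tgtp2 78.4 ± 28.6 TPM and Irgm1, a regulator of the group, 75.4 ± 7.96 TPM, while Irgc1 had 0.360 ± 0.095 TPM and did not pass (limma adjusted p = 1.0). All 9 genes over a mean of 1 TPM were highest in replicate 1. None of these 9 was lowest in replicate 2, where 6 of the 10 members were lowest in TPM. Of the 10226 protein-coding genes with a mean above 1 TPM, 2879 were lowest there. The 5 matched Mx and Gvin genes were all above the floor, with a median of 286 TPM. Mx1 had 1880 ± 586 TPM, Mx2 311 ± 115 TPM and Gm8995 286 ± 64.6 TPM. Of the 5 genes, 2 were lowest in replicate 2, and all 5 were highest in replicate 1. The share of protein-coding genes above 1 TPM that were highest in replicate 1 was the 27.9% given above.

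The genes of the processes in which GBPs act were expressed as well. All 15 matched genes of cytosolic lipopolysaccharide sensing and inflammasomes passed, as did 61.8% of protein-coding genes tested, and their median was 53.9 TPM. Il1b had 319, 130.2 and 436 TPM (295 ± 154). Casp4, which encodes the lipopolysaccharide receptor caspase-11, had 302, 106 and 205 TPM (204 ± 97.8), and the inflammasome sensor gene Nlrp3 had 201 ± 81.4 TPM. Of these 15 genes, 8 were highest in replicate 1, against 27.9% of protein-coding genes with a mean above 1 TPM. Of 16 genes of autophagy conjugation and vacuole targeting, 15 passed. Rnf213 (985 ± 65.8 TPM), a ubiquitin ligase that targets bacterial lipopolysaccharide, Sqstm1 (698 ± 321 TPM) and Lgals8 (155 ± 28.2 TPM) were the highest, and Map1lc3a (1.02 ± 0.238 TPM) did not pass (limma adjusted p = 0.85). All 8 prenylation enzyme genes passed, at a median of 6.17 TPM, near the 4.17 TPM over protein-coding genes tested. The highest were Pggt1b, a subunit of the enzyme that attaches a lipid to CaaX proteins, at 34.9 ± 6.14 TPM, Rabggtb at 20.2 ± 3.86 TPM and Rabggta at 15.1 ± 4.02 TPM. None of the 8 was highest in replicate 1, where 27.9% of protein-coding genes with a mean above 1 TPM were highest.

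Marker genes of other cell types were mostly near 0. All 10 macrophage markers were above 1 TPM, among them Adgre1 (345 ± 27.3 TPM) and Csf1r (178 ± 36.0 TPM). Of 8 T and NK cell markers only Cd4 passed, at 7.33 ± 0.757 TPM, and Cd3e, Ncr1, Klrb1c and Eomes were at 0. None of 4 B cell, 6 granulocyte and mast cell, 4 dendritic cell and 5 stromal and endothelial markers passed, and the summed level of each of these lists was at most 3.51 TPM in any library. Pecam1 alone among them had an unadjusted limma p under 0.05 (1.59 ± 0.471 TPM), and in the second transcript table Mpo, Zbtb46, Siglech, Col1a1 and Pecam1 were called. In replicates 1, 2 and 3 the summed T and NK cell markers had 7.66, 6.94 and 8.42 TPM, and the summed macrophage markers 1189, 1160 and 1396 TPM. Both sums were highest in replicate 3, but each leans on 1 gene. Cd14 had 94.1, 62.8 and 245 TPM, and Cd4 had 7.40, 6.54 and 8.05 TPM. Of the 10 macrophage markers, 3 were highest in replicate 1, where every member was highest. Among protein-coding genes with a mean above 1 TPM, 27.9% were highest there. The part of cell content in the pattern of the members was not tested.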

How the data were processed

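Each of the 3 libraries had a gene table and 2 transcript tables. Per the file headers, the first 2 of these tables list expected counts, TPM, and posterior means and SDs in RSEM's column layout. In the other transcript table, here called the second, the authors deposited estimated counts with TPM in kallisto's layout. The text file deposited beside each sample names assembly mm10 and annotation release M21. The aligner, its version and the strand setting were not given in the sources used here. Close paralogs and overlapping genes can therefore exchange reads.

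Total expected counts over genes were 12401783 to 18317179, after leaving out rows that name no gene (0.401% to 1.04%). Pairs of libraries differed far beyond counting noise (chi-square per degree of freedom 40.1 to 75.9). Levels were tested with limma 3.58.1 (R 4.3.3) on log2(TPM + 0.1) against 1 TPM, one-sided, over every gene with a nonzero TPM in at least 1 library, at an adjusted p of 0.05. On this scale differences of low genes are understated. Spread was taken from edgeR 4.0.16 on rounded expected counts, with TMM scaling and filterByExpr. Scripts were tested on simulated data. Alternatives were other pseudocounts, floors and filters, the second transcript table, TPM rescaled over protein-coding genes, DESeq2 1.42.0 size factors, and each library left out.

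The members, lists and tests were chosen with earlier results of these data known. Named were all members, the 3 highest genes and every gene not called of each of 7 pathway lists, other genes with a Gbp symbol, and coding genes inside the clusters. Gm17757 and Pyhin1 matched no annotated symbol. Markers and examples outside this rule were chosen after their values were seen. A planned comparison of protein sequences was not run. Coding sequences of the transcripts in GENCODE M21 were aligned in its place with Biopython 1.88, a choice made after the files were seen.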

Additional observations from a re-analysis of the deposited data

How the results depend on the processing

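The 8 members above 1 TPM were called under every alternative run, at 4.78 to 9.94 log2 units above a floor of 1 TPM and 3.41 to 6.06 above one of 5 TPM. The count of members stayed at 8 except with the second transcript table and with TPM rescaled over protein-coding genes, where it was 9 with Gbp10 added (1.80 and 2.77 log2 units). Under the rescaling Gbp2b turned to 0.54 log2 units above the floor without passing (limma adjusted p = 0.071). The rescaling raises all protein-coding genes, which held 29.8% to 33.3% of TPM. It moved the family sum to 3539 TPM and the median level of the members from 6.37 to 8.04 log2 units, and a pseudocount of 1 moved that median to 5.52. Leaving out each library gave medians of 6.14 to 6.54, family sums of 924 to 1316 TPM, protein-coding shares of 31.3% to 33.2% and median BCVs of 0.168 (without replicate 2) to 0.266. The protein-coding share was 34.6% in the second transcript table and 37.8% as a share of TPM. Pathway genes called were 69, with 58 to 69 under the alternatives. With a floor of 5 TPM, 3 of 8 prenylation genes were called, where 29.2% of all genes tested were. With the rescaling, 3 Mx and Gvin genes were tested and called, and 2 interferon genes were called. No paired analysis was possible because there is 1 group. Depth limits Gbp2b and Gbp10, whose expected counts were 14 to 104 per library.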

Other observations

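Coding genes beside the clusters, within 100 kb of the members, Gbp11 and Gbp2-ps, were lower than the called members. Pdlim5, upstream of the chromosome 3 cluster, had 28.1, 20.0 and 22.0 TPM. On its other side Kyat3 had 1.31, 1.69 and 2.41 TPM and the general transcription factor gene Gtf2b had 22.1, 11.0 and 27.7 TPM. Beside the chromosome 5 cluster Abcg3 had 9.17, 8.83 and 9.09 TPM and Lrrc8b had 1.11, 0.78 and 1.25 TPM. Of these 5 genes only Pdlim5 and Abcg3 were highest in replicate 1, as all members were.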
